A study of Mus musculus with 81 samples.

Results

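The expression of 9 imprinted genes, out of 57010 gene IDs in the count data, was examined in hippocampal neurons of the Ts65Dn mouse model of Down syndrome (DS). The genes were taken from a fixed list, matched by symbol to a Gencode mouse annotation. They were the 4 noncoding transcripts of the Meg3 locus (Meg3, Rian, Mirg and B830012L14Rik) and 5 protein-coding genes of other imprinted loci (Nap1l5, Peg3, Ndn, Snrpn and Impact). The list was drawn up with the genotype contrast of mice on the normal maternal diet in view, so that contrast is described below without a test.

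The libraries came from CA1 pyramidal neurons (CA1 PNs), CA3 pyramidal neurons (CA3 PNs) and dentate gyrus granule cells (DGCs) isolated by laser capture microdissection (LCM), which cuts visually identified, Nissl-stained neurons out of frozen sections. Trisomic mice (Ts) carry an extra segment of chromosomal material orthologous to part of the human DS chromosome, and disomic mice (2N) from the same breeding were the controls. Breeder females carried Ts65Dn and the males were C57Bl/6J Eicher × C3H/HeSnJ F1, so the mice had a mixed background. Their dams received either a normal choline diet with 1.1 g/kg choline chloride (ChN) or a diet supplemented to 5.0 g/kg (ChP) through gestation and nursing, after which all offspring ate the control diet until they were studied at about 6 months of age. The ChN mice were male. There were 81 libraries from 28 mice: 6 Ts and 6 2N mice on ChN, and 9 Ts and 7 2N mice on ChP. Each mouse gave 1 library per population, except that Ts ChN had 5 CA1 PN libraries and Ts ChP had 7 CA3 PN libraries.

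Total counts per library ranged from 358355 to 4744036, with a median of 1105133. Markers of the dissected population were high in every CA3 PN library (mean log2 CPM of the CA3 list 7.06 to 7.46) and in every DGC library (dentate list 7.41 to 7.99). The CA1 PN libraries were not uniform: in 10 of 27 the mean log2 CPM of 5 CA2 pyramidal neuron markers was 5.63 to 7.85, against 2.02 to 3.55 in the other 17, and in those 10 the CA1 list fell to between 2.74 and 7.35, against 7.51 to 7.96. These 10 were spread over the groups (2 of 6 2N ChN, 1 of 5 Ts ChN, 3 of 7 2N ChP and 4 of 9 Ts ChP). The CA1 PN library of mouse 17-21 (2N, ChN) had a CA1 list mean of 2.92 and a CA2 list mean of 7.85. The CA3 PN library of mouse 15-145 is labeled Ts while its CA1 PN and DGC libraries are labeled 2N, and it was counted as 2N. Among CA3 PN libraries, that of mouse 15-140 (Ts, ChP) had a dentate list mean of 4.30, against 2.35 or less in the others. Where leaving these libraries out, or counting that of 15-145 as Ts, changed a count of members, the counts are given both ways.

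Imprinted genes are transcribed mainly from the copy inherited from 1 parent, a state set by DNA methylation at a control region of the locus. Meg3, Rian, B830012L14Rik and Mirg lie head to tail on the same strand and are expressed from the maternal chromosome, whereas Nap1l5, Peg3, Ndn, Snrpn and Impact are expressed from the paternal one. Imprinted genes are abundant in brain, where several affect growth, feeding and neuronal survival. The counts did not separate the parental alleles, so what follows concerns total levels. None of the 9 genes lies on the segment that is triplicated in Ts65Dn.

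In GRCm39, the build of the annotation to which the gene IDs were matched, Meg3 (ENSMUSG00000021268) spans chr12:109506877-109538165 on the plus strand. Rian (ENSMUSG00000097451), a host of small nucleolar RNAs, follows at chr12:109570242-109628150. B830012L14Rik (ENSMUSG00000098202) lies at chr12:109642711-109680989, and Mirg (ENSMUSG00000097391), a host of microRNAs (miRNAs), at chr12:109696198-109715898. All 4 are annotated as long noncoding RNAs and share no exon bases with each other. B830012L14Rik shares exon bases with Gm37899 on the same strand, so the division of reads between B830012L14Rik and Gm37899 is uncertain. The locus can also be read through its miRNAs: 29 miRNA genes lie inside the 4 transcripts, 14 of them in Mirg, 9 in B830012L14Rik, 4 in Rian and 2 in Meg3, and of these 10, 0, 2 and 2 respectively overlap exons. Mature sequences from RefSeq (GRCm38.p6) matched 28 of the 29 genes and gave 52 mature miRNAs with 49 different seeds. Mature miRNAs were not measured in these libraries, and the sequences are shown because they are what the host transcripts carry. Exonic examples in Meg3 and Mirg are printed 5′ to 3′ with the seed (bases 2 to 8) in capitals.

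miR-770-5p (Meg3): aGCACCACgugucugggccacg
miR-134-5p (Mirg): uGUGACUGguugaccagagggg
miR-485-3p (Mirg): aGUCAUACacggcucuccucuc
miR-377-3p (Mirg): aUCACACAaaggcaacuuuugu
miR-410-3p (Mirg): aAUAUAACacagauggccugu
miR-496a-3p (Mirg): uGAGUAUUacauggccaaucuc

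Only 3 seeds of the 52 mature miRNAs were shared by a pair of them, and these pairs are shown because a seed is the part of a miRNA that pairs with its targets. Capitals again mark the seed.

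miR-379-3p: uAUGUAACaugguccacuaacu
miR-411-3p: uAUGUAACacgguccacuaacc
miR-1197-5p: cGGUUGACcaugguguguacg
miR-758-5p: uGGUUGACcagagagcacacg
miR-453: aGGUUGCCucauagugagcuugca
miR-496a-5p: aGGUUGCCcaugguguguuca

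Nap1l5 (ENSMUSG00000055430), which encodes a nucleosome assembly protein 1-like protein, is a single exon of 1844 bases at chr6:58882218-58884061 on the minus strand. It sits within an intron of Herc3, on the opposite strand. Peg3 (ENSMUSG00000002265; chr7:6706882-6733468, minus strand) encodes a zinc finger protein. Ndn (ENSMUSG00000033585; chr7:61995473-62000010, plus strand) encodes necdin, a growth suppressor of postmitotic neurons. Snrpn (ENSMUSG00000102252; chr7:59630427-59820763, minus strand) encodes the splicing protein SmN. It shares 216 exon bases with Snurf and a larger number with Gm38393, both on the same strand. The division of reads between Snrpn and these genes is therefore uncertain. Impact (ENSMUSG00000024423; chr18:13088909-13126012, plus strand) encodes an inhibitor of the activation of the kinase GCN2.

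Imprinted control regions are kept methylated by ZFP57, which recognizes the hexamer TGCCGC. RefSeq promoter windows, from 250 bases before to 50 after the start, were available for 7 of the members (GRCm38.p6). The hexamer was searched on both strands, and 11.6% of all 32851 windows held it. These 7 genes had 11 windows, with 2 for Meg3 and 4 for Snrpn, and the hexamer occurred in 3 of the 11, each of a different gene. These 3 windows are printed 5′ to 3′ on the strand of the gene with the hexamer or its reverse complement GCGGCA in capitals, because these are the ones that hold it. The Meg3 window is chr12:109540746-109541045 (plus strand), the Nap1l5 window chr6:58907077-58907376 (minus strand) and the Snrpn window chr7:60005150-60005449 (minus strand).

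Meg3: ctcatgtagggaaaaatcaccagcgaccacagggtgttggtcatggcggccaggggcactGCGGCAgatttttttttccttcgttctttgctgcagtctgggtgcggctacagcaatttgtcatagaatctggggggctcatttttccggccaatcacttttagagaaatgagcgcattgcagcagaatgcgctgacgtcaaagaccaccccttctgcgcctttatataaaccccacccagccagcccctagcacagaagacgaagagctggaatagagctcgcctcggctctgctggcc
Nap1l5: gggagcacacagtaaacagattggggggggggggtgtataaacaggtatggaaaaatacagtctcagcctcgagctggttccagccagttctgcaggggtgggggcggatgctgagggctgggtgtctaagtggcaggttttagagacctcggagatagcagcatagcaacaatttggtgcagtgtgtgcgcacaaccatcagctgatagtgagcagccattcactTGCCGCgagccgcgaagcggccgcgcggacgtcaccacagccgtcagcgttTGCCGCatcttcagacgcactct
Snrpn: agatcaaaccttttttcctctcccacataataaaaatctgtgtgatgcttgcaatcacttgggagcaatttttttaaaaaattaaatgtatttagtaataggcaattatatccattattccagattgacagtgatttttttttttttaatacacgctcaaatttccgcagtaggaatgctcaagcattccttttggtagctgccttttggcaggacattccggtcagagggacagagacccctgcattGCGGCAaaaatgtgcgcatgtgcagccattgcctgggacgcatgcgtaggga

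The Nap1l5 window held 2 matches, which 1.53% of all windows matched or exceeded, and the Meg3 and Snrpn windows 1 each. The CpG count was 17 for Nap1l5, 13 for Meg3 and 7 for Snrpn, with a median of 7 over all windows. The Rian, Mirg, Peg3 and Ndn windows held no match, and neither did the second Meg3 window (CpG count 1) or the other 3 Snrpn windows (CpG counts 4, 3 and 2). A match is a run of letters and not a measured binding site.

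Compared per length, in TPM, a unit that corrects for transcript length, Meg3, Rian and Snrpn were the most abundant members in each population. Median TPM of Meg3 was 399.6 in CA1 PNs (n = 27 libraries), 402.8 in CA3 PNs (n = 26) versus 152.5 in DGCs (n = 28), which ranked it 158, 169 and 426 among all genes. Snrpn followed a similar order, with median TPM of 310.5 in CA1 PNs, 426.6 in CA3 PNs versus 181.5 in DGCs. Rian was at 326.1, 295.4 and 120.4 TPM.

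The other members were lower. Impact had median TPM of 110.1, 124.2 and 62.27 in CA1 PNs, CA3 PNs and DGCs. Nap1l5 was at 76.7, 48.64 and 48.7 TPM, and Peg3 at 56.67, 85.47 and 64.16 TPM. Nap1l5 and Rian had their highest median in CA1 PNs, while Peg3 and Ndn (27.12, 50.89 and 24.77 TPM) peaked in CA3 PNs. Mirg (25.03, 26.61 and 9.77 TPM) and B830012L14Rik (9.61, 10.73 and 4.295 TPM) were the scarcest, with as few as 2 and 4 reads in single DGC libraries, so their DGC values carry the largest counting error.

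**Figure D1:**
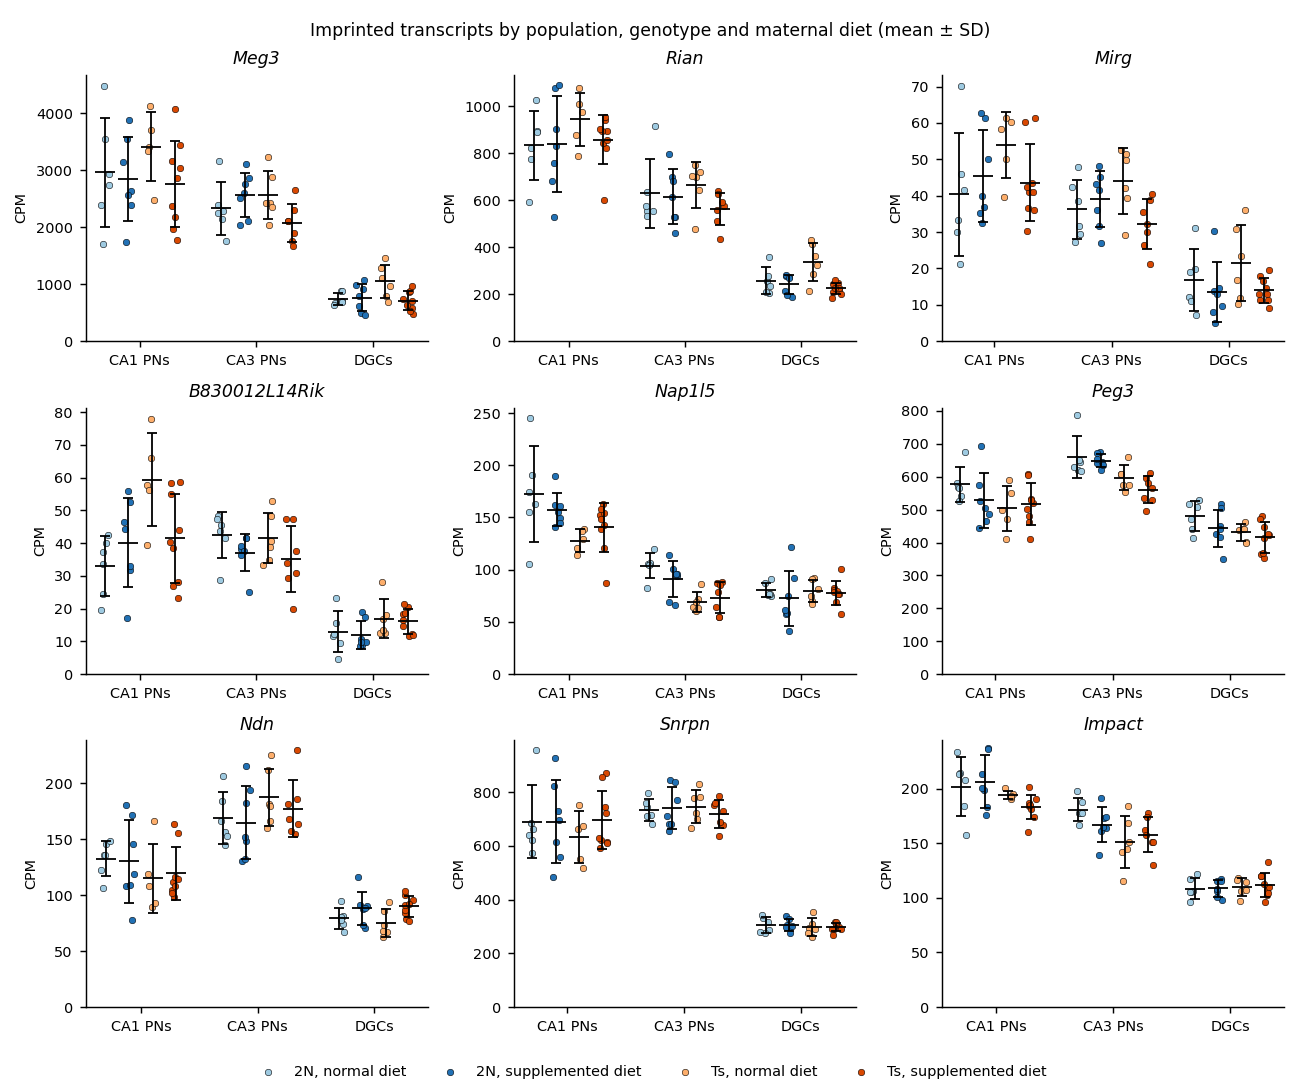
Level of each member in CPM (counts scaled to library size, y axis) in every library, by population (x axis) and by genotype and maternal diet (color); black lines are mean ± SD. The 4 transcripts of the Meg3 locus, Snrpn and Impact sit mostly lower in DGCs than in both kinds of PNs, and Nap1l5 is highest in CA1 PNs.

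The populations were compared first in 2N ChP mice, which had a library from each of 7 mice in all 3 populations. These mice were not part of the ChN genotype contrast that was in view when the genes were chosen. Earlier results of these data were known at that time, so full independence of these tests from the choice is not shown. Values below are CPM after TMM scaling over all libraries, and LFC is the log2 fold change of an edgeR quasi-likelihood fit with Benjamini-Hochberg adjustment over all genes tested. In LCM pools, fewer cells of a type and less RNA per cell cannot be told apart.

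All 4 transcripts of the Meg3 locus were lower in DGCs than in PNs. Meg3 CPM in 2N ChP mice had a lowest, median and highest value of 1745, 2637 and 3890 in CA1 PNs, 2035, 2610 and 3104 in CA3 PNs, but 465.4, 799.4 and 1065 in DGCs. The lowest PN library thus lay above the highest DGC library. The LFC of Meg3 was 1.86 ± 0.20 (SE) for CA1 PNs against DGCs (adjusted p = 5.01e-07) and 1.72 ± 0.20 for CA3 PNs against DGCs (adjusted p = 9.8e-07). Rian, Mirg and B830012L14Rik differed by similar amounts, with LFCs of 1.75 ± 0.16, 1.64 ± 0.24 and 1.61 ± 0.24 for CA1 PNs against DGCs and of 1.32 ± 0.15, 1.45 ± 0.24 and 1.51 ± 0.23 for CA3 PNs against DGCs, all with adjusted p of 3.02e-06 or less.

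Among the paternally expressed genes, Snrpn was likewise lower in DGCs than in both kinds of PNs. Its CPM was 690.8 ± 154 (SD, n = 7) in CA1 PNs, 740.5 ± 78.1 in CA3 PNs versus 305.8 ± 21.0 in DGCs. The LFC was 1.13 ± 0.11 for CA1 PNs against DGCs (adjusted p = 3.66e-12) and 1.24 ± 0.11 for CA3 PNs against DGCs (adjusted p = 1.32e-13). Impact was also lower in DGCs (108.8 ± 7.61 CPM) than in CA1 PNs (206.3 ± 23.9 CPM, LFC 0.88 ± 0.10, adjusted p = 2.3e-09) and CA3 PNs (166.7 ± 16.0 CPM, LFC 0.59 ± 0.10, adjusted p = 7.87e-06). Ndn was higher in CA3 PNs than in DGCs by an LFC of 0.88 ± 0.15 (adjusted p = 1.21e-05) and in CA1 PNs by 0.53 ± 0.16 (adjusted p = 0.00783). Without the CA1 PN libraries high in CA2 markers, the Ndn difference between CA1 PNs and DGCs was 0.40 ± 0.18 (adjusted p = 0.102) and no longer passed the test.

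Peg3 and Nap1l5 each set a different population apart. Peg3 was higher in CA3 PNs (649.2 ± 19.9 CPM) than in DGCs (443.3 ± 56.5 CPM, LFC 0.52 ± 0.09, adjusted p = 1.27e-05), with an LFC of 0.21 ± 0.09 between CA1 PNs and DGCs that missed the threshold (adjusted p = 0.0932; 0.0428 without mouse 16-90). Nap1l5 CPM had a lowest, median and highest value of 141, 154.9 and 189.3 in CA1 PNs, 66.19, 96.01 and 114.2 in CA3 PNs, versus 40.89, 61.42 and 121.3 in DGCs. No CA1 PN library overlapped either of the other populations, while CA3 PN and DGC libraries overlapped. The LFC of Nap1l5 was 1.06 ± 0.15 for CA1 PNs against DGCs (adjusted p = 3.33e-07), 0.80 ± 0.15 for CA1 PNs against CA3 PNs (adjusted p = 4.09e-05) and 0.27 ± 0.15 for CA3 PNs against DGCs (adjusted p = 0.172).

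In total, 8 of the 9 members were higher in CA1 PNs than in DGCs, where 17.0% of all genes tested were higher and 31.8% differed in either direction. Likewise 8 of 9 were higher in CA3 PNs than in DGCs, against 20.9% of all genes higher and 40.4% in either direction. With the CA1 PN libraries high in CA2 markers left out, 7 members were higher in CA1 PNs than in DGCs. Of all genes, 28.8% then differed in either direction. The median LFC of the members was 1.13 for CA1 PNs against DGCs, with a median over all genes of -0.0021, and 1.24 for CA3 PNs against DGCs, with a median over all genes of -0.0185. The 2 sets of libraries did not overlap in CPM for 6 members in the CA1 PN contrast (all genes, 12.8%) and for 7 in the CA3 PN contrast (19.4%).

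Between CA1 PNs and CA3 PNs, 4 of the 9 members differed in either direction, as did 22.9% of all genes tested. Nap1l5, Rian (LFC 0.43 ± 0.15, adjusted p = 0.0353) and Impact (LFC 0.29 ± 0.10, adjusted p = 0.0261) were higher in CA1 PNs, and Peg3 was higher in CA3 PNs (LFC -0.31 ± 0.09, adjusted p = 0.0103). The CPM values of the libraries did not overlap for 1 member, Nap1l5 (all genes, 7.39%). The Rian, Peg3 and Impact calls were each lost when single mice were left out: Rian without 14-125, 15-296 or 15-334 (adjusted p 0.0601 to 0.089), Peg3 without 15-269, 15-296 or 16-273 (0.0559 to 0.0699) and Impact without 15-334 or 16-273 (0.0561 to 0.102). Ndn (LFC -0.35 ± 0.15, adjusted p = 0.0834) reached an LFC of -0.37 (adjusted p = 0.0305) with the mouse as a replicate block.

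Without the CA1 PN libraries high in CA2 markers, 4 CA1 PN libraries remained in this group and 6 members differed between CA1 PNs and CA3 PNs (all genes, 26.7%). The added calls were Ndn (LFC -0.48 ± 0.17, adjusted p = 0.038) and Snrpn (LFC -0.34 ± 0.09, adjusted p = 0.00287), both higher in CA3 PNs. Seen across all 27 CA1 PN libraries, Snrpn CPM had a median of 789.2 (639 to 957.7) in the 10 libraries high in CA2 markers and 615.8 (484 to 696.1) in the other 17. Meg3 went the other way, at 2378 (1711 to 3149) against 3414 (2182 to 4481), and so did B830012L14Rik, at 30.64 (17.07 to 55.89) against 46.45 (24.52 to 77.79). The 10 libraries also had a median mitochondrial share of counts of 7.84%, against 5.75% in the other 17, and higher median marker lists of inhibitory neurons (mean log2 CPM 5.02 against 4.38), oligodendrocytes (4.57 against 3.85), astrocytes (5.22 against 4.92) and vascular cells (3.25 against 2.66). The median CA3 list was also higher in the 10, at 4.52 (4.06 to 6.71) against 2.38 (1.59 to 3.13). Microglia markers were slightly lower, at 2.15 against 2.28. The part of CA2 and CA3 neurons, of other cells and of the mitochondrial share in the gene values was not tested.

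**Figure D2:**
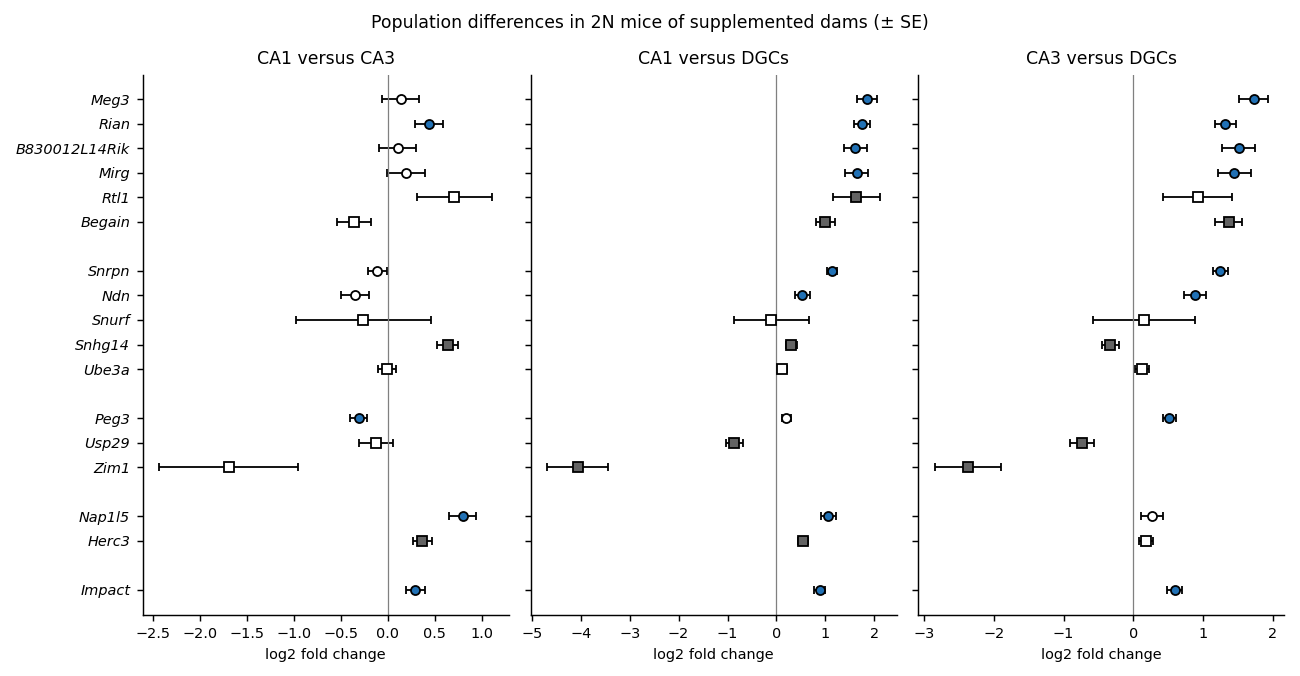
Log2 fold change (x axis, ± SE) between populations in 2N ChP mice for the members (circles) and the other measured genes of their 4 domains (squares), grouped by locus; filled symbols passed adjusted p of 0.05. The members of the Meg3 locus (circles) lie between 1.32 and 1.86 against DGCs in both PN panels, and Zim1 lies far on the DGC side.

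The same contrasts in the other groups gave the following counts. All 9 members were higher in CA1 PNs than in DGCs of 2N ChN, Ts ChP and Ts ChN mice (34.3%, 39.3% and 33.7% of all genes differed in either direction), and 9, 8 and 8 were higher in CA3 PNs than in DGCs (43.7%, 44.2% and 44.5%), the exception being Nap1l5. Between CA1 PNs and CA3 PNs the counts were 3 (23.3%), 4 (24.5%) and 7 (25.3%), with Nap1l5 and Rian higher in CA1 PNs and Ndn higher in CA3 PNs in each. Without the libraries high in CA2 markers, the CA1 PN counts were 9, 9 and 8 against DGCs (32.9%, 35.4% and 33.8%; Peg3 lost in Ts ChN, adjusted p = 0.08) and 5, 8 and 7 against CA3 PNs (28.5%, 30.0% and 30.0%), with Snrpn higher in CA3 PNs in each. Without mouse 15-140, the Ts ChP count between CA1 PNs and CA3 PNs was 3 (23.6%). With mouse 15-145 under its own label, 8 members were higher in CA3 PNs than in DGCs of 2N ChN mice (41.7%) and 5 differed between CA1 PNs and CA3 PNs of Ts ChN mice (25.8%), Rian no longer among them (adjusted p = 0.0637). These contrasts were added after the values of the first were seen.

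Neighbors within the imprinted domains did not all share the order of the members. In the Meg3 domain, Begain, which encodes a protein of the postsynaptic density, was higher in CA1 PNs (LFC 1.0 ± 0.20, adjusted p = 0.000221) and CA3 PNs (1.36 ± 0.20, adjusted p = 1.26e-06) than in DGCs. Rtl1, a retrotransposon-like gene transcribed opposite to miRNAs of the locus, was present at 0 to 14 reads and differed between CA1 PNs and DGCs (LFC 1.63 ± 0.48, adjusted p = 0.00717). Dlk1, the protein-coding gene for which the domain is named, had 0 reads in all 21 libraries of 2N ChP mice.

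In the Peg3 domain, Usp29 and Zim1 were higher in DGCs than in PNs, unlike Peg3 itself. Usp29, a ubiquitin-specific protease gene that shares its promoter region with Peg3, was lower in CA1 PNs (LFC -0.86 ± 0.18, adjusted p = 0.000143) and CA3 PNs (-0.73 ± 0.17, adjusted p = 0.000528) than in DGCs. Zim1, a maternally expressed zinc finger gene, was at 4.916 to 21.8 CPM in DGCs and 0 to 1.639 CPM in CA1 PNs (LFC -4.06 ± 0.62, adjusted p = 8.51e-07), and was lower in CA3 PNs than in DGCs as well (LFC -2.37 ± 0.47, adjusted p = 5.84e-05). In the Snrpn domain, Snhg14, the noncoding host of small nucleolar RNAs that runs antisense to Ube3a, was higher in CA1 PNs than in CA3 PNs (LFC 0.64 ± 0.11, adjusted p = 2.65e-05) and lower in CA3 PNs than it was in DGCs (LFC -0.33 ± 0.12, adjusted p = 0.0213). Ube3a, a ubiquitin ligase gene, had LFCs of -0.01, 0.12 and 0.12 and passed the test in no contrast.

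Herc3, whose intron contains Nap1l5, was higher in CA1 PNs than in CA3 PNs (LFC 0.37 ± 0.10, adjusted p = 0.00519) and DGCs (0.54 ± 0.10, adjusted p = 4.03e-05). Its LFC between CA3 PNs and DGCs was 0.18 ± 0.10 (adjusted p = 0.175). The order of the populations for Herc3 was therefore that of Nap1l5, at smaller LFCs. The library kit kept strand, and the genes lie on opposite strands, but misassignment of reads between them was not tested.

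Genotype was tested in ChP mice. With 9 Ts and 7 2N libraries each for CA1 PNs and DGCs and 7 of each genotype for CA3 PNs, 0 of the 9 members differed at adjusted p under 0.05 by edgeR, where 0.0490%, 0.249% and 0.445% of all genes were called. At unadjusted p under 0.05 the counts were 0, 3 and 0, where 3.60%, 4.99% and 7.60% of all genes were. The counts at adjusted p were 0, 1 and 0 by DESeq2 and 0, 0 and 0 by limma-voom. Over all genes tested in CA1 PNs, DESeq2 called 19, edgeR 7 and limma-voom 7. The numbers for CA3 PNs and DGCs by DESeq2 and limma-voom are not given here.

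The 3 members with a low unadjusted p were all lower in Ts CA3 PNs. Peg3 CPM in CA3 PNs had a lowest, median and highest value of 621.9, 644.7 and 675.4 in 2N ChP mice and 495.8, 566.6 and 612.2 in Ts ChP mice. Every Ts library was therefore below every 2N library, which held in the lower direction for 0.0214% of all genes tested. The LFC of Peg3 was -0.21 ± 0.06 (unadjusted p = 0.00238, adjusted p = 0.352; adjusted p = 0.0472 by DESeq2), and over all settings, leaving out mouse 15-140 included, it stayed between -0.23 and -0.18. Meg3 fell short of the threshold with 2074 ± 338 CPM in Ts and 2570 ± 387 CPM in 2N mice (LFC -0.30 ± 0.11, unadjusted p = 0.0135, adjusted p = 0.722; adjusted p = 0.00243 when no filter on low counts was used).

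Nap1l5 was the third. Its CPM in CA3 PNs ran from 66.19 to 114.2 (median 96.01) in 2N ChP mice and from 54.48 to 88.05 (median 78.46) in Ts ChP mice, with overlap. The LFC was -0.28 ± 0.13 (unadjusted p = 0.035, adjusted p = 0.953). In CA1 PNs the LFC of Nap1l5 was -0.17 ± 0.11 (adjusted p = 1), or -0.06 ± 0.11 without the libraries high in CA2 markers, and in DGCs it was 0.07 ± 0.14 (adjusted p = 0.968). Leaving those libraries out, 1 member passed the unadjusted threshold for CA1 PNs (all genes, 7.01%), namely Impact (LFC -0.25 ± 0.10, unadjusted p = 0.0187, adjusted p = 0.586). Of 30 or 31 other imprinted genes tested in each population, none passed at adjusted p; 0, 2 and 4 had an unadjusted p under 0.05, with Inpp5f in DGCs closest (LFC 0.52 ± 0.14, adjusted p = 0.0636).

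The values in ChN mice, which were in view when the genes were chosen, are given as a description. Nap1l5 CPM in CA3 PNs was 82.48 to 119.8 (median 105.4) in 6 2N mice and 60.68 to 86.34 (median 66.63) in 6 Ts mice, so that 1 Ts library lay inside the 2N range. The LFC was -0.61 ± 0.11. The highest 2N value belonged to mouse 15-145, whose CA3 PN library is labeled Ts, and with that library counted as Ts the LFC was -0.39 ± 0.15. In CA1 PNs the 5 Ts libraries had 114.1, 120.4, 129.0, 137.3 and 138.9 CPM of Nap1l5 and the 6 2N libraries 105.4 to 245.1 (median 168.9). The LFC was -0.45 ± 0.16, and -0.58 ± 0.13 without the libraries high in CA2 markers, among them the lowest 2N library (17-21). In DGCs it was -0.02 ± 0.11.

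The LFCs of the Meg3 locus in Ts ChN mice were above 0 in CA1 PNs and DGCs. B830012L14Rik in CA1 PNs was at 39.33, 56.26, 57.76, 65.99 and 77.79 CPM in Ts mice and 19.47 to 42.57 (median 35.59) in 2N mice, with an LFC of 0.81 ± 0.20, or 0.80 ± 0.19 without the libraries high in CA2 markers. The other 3 transcripts had smaller LFCs in CA1 PNs, with 0.18 ± 0.20 for Meg3, 0.16 ± 0.13 for Rian and 0.42 ± 0.23 for Mirg. Without the libraries high in CA2 markers these were 0.07 ± 0.14, 0.09 ± 0.09 and 0.14 ± 0.20, and Meg3 was at -0.02 without mice 17-21 and 17-154. In DGCs the LFCs were 0.50 ± 0.20 for Meg3, 0.40 ± 0.20 for Rian, 0.43 ± 0.35 for Mirg and 0.42 ± 0.27 for B830012L14Rik. In CA3 PNs they ran from -0.01 (B830012L14Rik) to 0.28 (Mirg), and with mouse 15-145 under its own label from 0.06 (B830012L14Rik) to 0.42 (Mirg). Peg3 had LFCs of -0.22 ± 0.11, -0.15 ± 0.06 and -0.16 ± 0.07 in CA1 PNs, CA3 PNs and DGCs, the CA3 PN value moving to -0.04 ± 0.07 with mouse 15-145 under its own label. Impact was at -0.26 ± 0.09 in CA3 PNs and near 0 in DGCs (0.01). Ndn and Snrpn were between -0.22 and 0.16, and Ndn in CA1 PNs was at -0.38 ± 0.14 without the libraries high in CA2 markers.

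**Figure D3:**
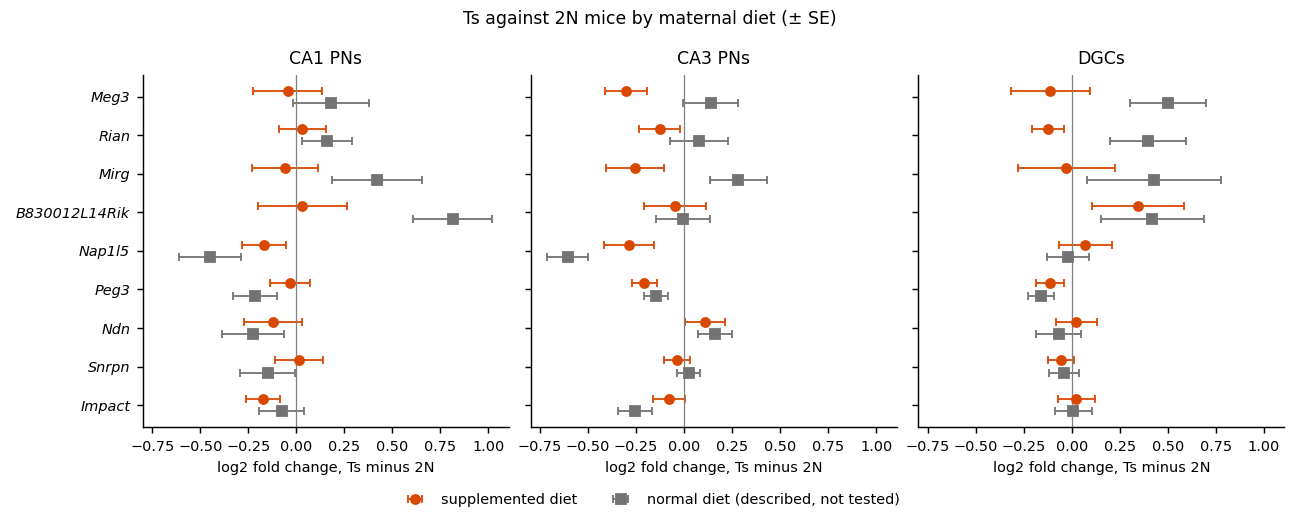
Log2 fold change of Ts against 2N mice (x axis, ± SE) for each member in the 3 populations, on the supplemented diet (circles, tested) and the normal diet (squares, described only). Nap1l5 is near 0 in DGCs on both diets. On ChP it is at -0.17 in CA1 PNs and -0.28 in CA3 PNs, and neither value passed at adjusted p. On ChN it is at -0.45 in CA1 PNs and -0.61 in CA3 PNs. These ChN values were in view when the genes were chosen, so they are not an independent result. Without the libraries high in CA2 markers, the CA1 PN values are -0.06 on ChP and -0.58 on ChN. With mouse 15-145 under its own label, the ChN value in CA3 PNs is -0.39.

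Diet was compared within each genotype. These tests share their ChN libraries with the contrast used to choose the genes, so they are not independent of that choice. At adjusted p under 0.05 by edgeR, 0 of 9 members differed in each of the 6 comparisons, and of all genes 0% were called in 5 of them and 0.00731% in 2N CA3 PNs. The DESeq2 count was 1 for Ts DGCs and 0 for the other comparisons, and limma-voom gave 0 in all. The shares of all genes called by DESeq2 and limma-voom are not given here. At unadjusted p under 0.05 there were 4 members in Ts DGCs (all genes, 3.94%), 2 in Ts CA3 PNs (4.90%), 1 in Ts CA1 PNs (3.26%) and none in 2N CA1 PNs, CA3 PNs and DGCs (2.24%, 4.08% and 5.52%).

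In Ts DGCs, Rian CPM was 214.1, 342.8 and 432.2 (lowest, median, highest) on ChN and 181.5, 225.2 and 260.2 on ChP. All but 1 ChN library were above every ChP library. The LFC of Rian was -0.58 ± 0.13 (unadjusted p = 0.000684, adjusted p = 0.999; adjusted p = 0.0269 by DESeq2). Meg3 was at 1051 ± 294 CPM on ChN (n = 6) and 709.9 ± 171 CPM on ChP (n = 9), an LFC of -0.56 ± 0.20 (unadjusted p = 0.0145). Mirg was at 21.57 ± 10.5 and 14.0 ± 3.42 CPM (LFC -0.62 ± 0.23, unadjusted p = 0.00845), and Ndn leaned the other way (LFC 0.26 ± 0.10, unadjusted p = 0.0147). Median mitochondrial shares of counts were 7.061% in Ts ChN and 6.982% in Ts ChP DGCs.

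With mouse 15-145 under its own label the CA3 PN counts at unadjusted p became 4 in Ts (all genes, 3.73%) and 1 in 2N mice (4.08%), and without mouse 15-140 the Ts count became 1 (Mirg; 4.70%). The added members were Rian (LFC -0.30 ± 0.12, unadjusted p = 0.0303) and Peg3 (LFC -0.14 ± 0.06, unadjusted p = 0.0346) in Ts and Meg3 (LFC 0.25 ± 0.09, unadjusted p = 0.014) in 2N CA3 PNs. With the labels as counted, in Ts CA3 PNs the members were Mirg (LFC -0.42 ± 0.14, unadjusted p = 0.00595) and Meg3 (LFC -0.29 ± 0.13, unadjusted p = 0.046). In Ts CA1 PNs it was B830012L14Rik (LFC -0.52 ± 0.21, unadjusted p = 0.0218), which was at -0.35 ± 0.16 without the libraries high in CA2 markers. Median mitochondrial shares were 5.77% in Ts ChN and 7.06% in Ts ChP CA1 PNs, and their part in this value was not tested. Without the libraries high in CA2 markers the counts at unadjusted p became 2 in Ts CA1 PNs (all genes, 4.17%) and 2 in 2N CA1 PNs (5.39%), where Peg3 was at -0.27 ± 0.10 (unadjusted p = 0.0104). Nap1l5 had an LFC of 0.24 ± 0.10 (unadjusted p = 0.0262) in Ts CA1 PNs and -0.27 ± 0.13 (unadjusted p = 0.0428) in 2N CA1 PNs once those libraries were left out.

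**Figure D4:**
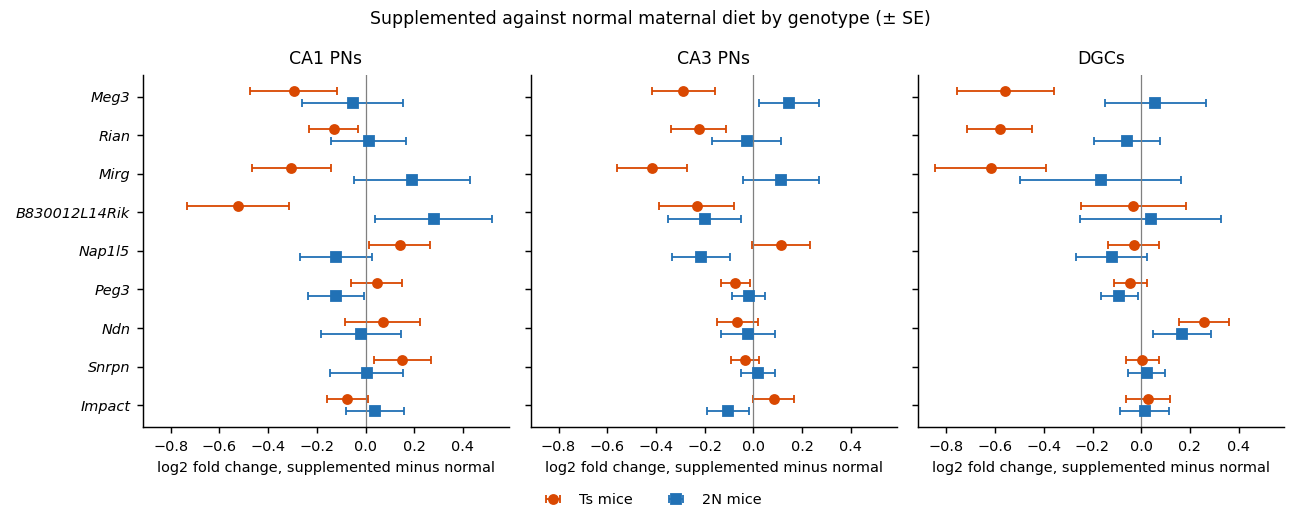
Log2 fold change of supplemented against normal maternal diet (x axis, ± SE) for each member in Ts (circles) and 2N mice (squares). The Ts values of Meg3, Rian and Mirg in DGCs lie at -0.56, -0.58 and -0.62, and no value passed adjusted p of 0.05 in edgeR.

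The difference between the genotype effects on both diets was tested as an interaction over all 4 groups of a population. By edgeR 0 of 9 members passed at adjusted p in CA1 PNs, CA3 PNs and DGCs (all genes, 0%), and DESeq2 and limma-voom also gave 0. At unadjusted p under 0.05 there were 1, 2 and 2 members (all genes, 3.22%, 4.87% and 3.97%): B830012L14Rik in CA1 PNs (-0.82 ± 0.34, unadjusted p = 0.0211), Meg3 (-0.43 ± 0.19, unadjusted p = 0.0302) and Mirg (-0.53 ± 0.22, unadjusted p = 0.016) in CA3 PNs, and Meg3 (-0.62 ± 0.29, unadjusted p = 0.0428) and Rian (-0.52 ± 0.21, unadjusted p = 0.0187) in DGCs. All 5 were negative, meaning a lower Ts to 2N ratio on ChP. The interaction contains the ChN genotype contrast that was in view when the genes were chosen, so neither these p-values nor the shared sign is independent of that choice. In CA3 PNs the count was 2 without mouse 15-140 (4.56%) and 3 with mouse 15-145 under its own label (4.19%), where Rian was added (-0.40 ± 0.18, unadjusted p = 0.0361). The value for Nap1l5 in CA3 PNs was 0.33 ± 0.17 (unadjusted p = 0.0537), or 0.11 ± 0.22 with mouse 15-145 under its own label, and in CA1 PNs without the libraries high in CA2 markers it was 0.52 ± 0.16 (unadjusted p = 0.00222, adjusted p = 0.747), which with B830012L14Rik (-0.63 ± 0.26, unadjusted p = 0.018) made 2 members (all genes, 5.09%).

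Levels of Meg3, Rian and Mirg were also compared across mice, after the mean of each genotype and diet group was subtracted, with permutations within groups and Benjamini-Hochberg adjustment over 9 relations. The levels of the 3 transcripts moved together in DGCs. Pearson's r was 0.80 for Meg3 and Rian (Spearman's rho 0.83, n = 28, adjusted permutation p = 9e-05, from the smallest p that the permutations can give), 0.65 for Meg3 and Mirg (rho 0.66, adjusted permutation p = 0.00114) and 0.66 for Rian and Mirg (rho 0.62, adjusted permutation p = 0.00211). Without the 2 libraries farthest from the median, r was 0.75, 0.53 and 0.52, and each stayed below adjusted p of 0.05.

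In CA3 PNs r was 0.72 for Meg3 and Rian (rho 0.74, n = 26, adjusted permutation p = 0.00085), and 0.66 without the 2 farthest libraries. Meg3 and Mirg had r = 0.46 (rho 0.56, adjusted permutation p = 0.0334), which was 0.41 (adjusted p = 0.0692) after adjustment for the mitochondrial share and depth. Rian and Mirg had r = 0.36 (adjusted permutation p = 0.0876) and rho 0.47 (adjusted permutation p = 0.0222), so only the rank correlation passed.

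In CA1 PNs r was 0.66 for Meg3 and Rian (rho 0.63, n = 27, adjusted permutation p = 0.00117), 0.58 for Meg3 and Mirg (rho 0.63, adjusted permutation p = 0.00787) and 0.47 for Rian and Mirg (rho 0.48, adjusted permutation p = 0.0334), and without the 2 farthest libraries 0.56, 0.57 and 0.40. Over the 17 CA1 PN libraries not high in CA2 markers, r was 0.33, 0.48 and 0.22, and none of the 3 passed at this smaller number (adjusted permutation p 0.285, 0.138 and 0.452). After adjustment for the mitochondrial share of counts and depth, r over all 27 was 0.64, 0.50 and 0.37, and the last of these no longer passed (adjusted permutation p = 0.0883).

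**Figure D5:**
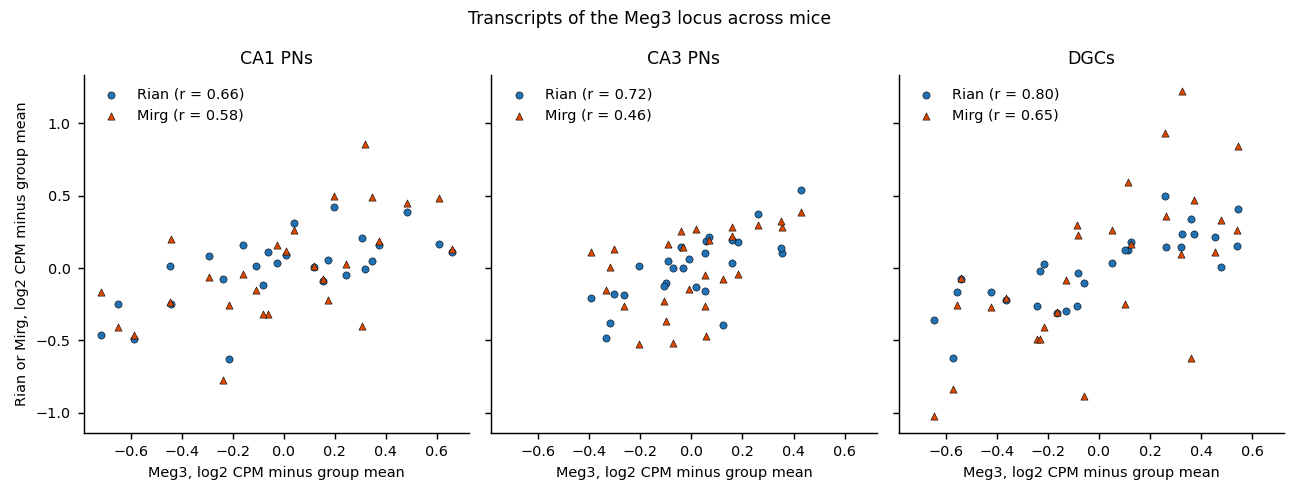
Rian (circles) and Mirg (triangles) against Meg3 in every library, each as log2 CPM minus the mean of its genotype and diet group. The r of Meg3 and Rian is 0.66 in CA1 PNs, 0.72 in CA3 PNs, against 0.80 in DGCs, and Mirg scatters more widely than Rian.

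A ranking by Pearson's r used all 81 libraries scaled together, with the mean of each population, genotype and diet group subtracted. Among 7646 genes, Rian was the gene whose pattern was most like that of Meg3 (r = 0.72), followed by Miat, a noncoding RNA of neurons (0.70), Trerf1 (0.63), Nav2 (0.62) and Plekhg5 (0.61). Mirg ranked 11th (0.59) and B830012L14Rik 32nd (0.55). Snrpn (-0.47) and Ndn (-0.37) were at the opposite end. In CA1 PNs, r with the mitochondrial share of counts was -0.79 for Meg3, 0.66 for Snrpn and 0.45 for Ndn. The values were 0.01, -0.20 and -0.43 in CA3 PNs, and -0.23, -0.245 and -0.54 in DGCs. The part of that share in the pooled ranking was not tested. The genes most like Nap1l5 were Atp1b2 (0.59), Mtcl1 (0.58), Igsf9b (0.57), Bcr (0.56) and Rfxap (0.55). These values describe libraries that share depth, dissection and kit, and carry no test.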

How the data were processed

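The members and the wider list of imprinted genes were chosen with earlier results of these data known. Per the labels and the methods of the study, the authors trimmed reads with Trimmomatic 0.39, checked them with FastQC 0.11.9 and Picard 2.26.2, aligned them with STAR and estimated counts with RSEM. The submitters' processing notes name both GRCm39 and mm10; the gene IDs were matched to a GRCm39 annotation. The authors deposited RSEM expected counts and TPM per gene for each library, and 1 CA1 PN sample of a Ts ChN mouse was removed by them. Kit UMIs and their use in counting are not given in the sources used here. Low-input RNA limits the precision of scarce transcripts.

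The expected counts, rounded to integers, were filtered for more than 0.1 CPM in 10 or more of the compared libraries and fitted with edgeR 4.0.16 (R 4.3.3; TMM, robust quasi-likelihood F test, two-sided), and a call is a Benjamini-Hochberg adjusted p under 0.05 over all genes tested. DESeq2 1.42.0, limma-voom (limma 3.58.1), scaling to library totals, another filter and none, and leaving out each mouse were alternatives. CPM values were scaled over all 81 libraries. Correlations within a population used log2 CPM scaled within that population, with a prior count of 2 and permutations within groups. The study's covariates were not in the sources used here as values and were not fitted. On simulated data the fit returned fold changes close to those set, and called smaller changes less often than larger ones. Replicates are separate mice; every mouse gave a library to several populations. Mice paired the populations in 2N ChP, where deviations from the group means correlated within mice (median 0.147 for CA1 and CA3 PNs, 0.129 for CA1 PNs and DGCs, 0.116 for CA3 PNs and DGCs over 7 mice), against medians of -0.011, -0.024 and -0.014 between different mice. All 9 members were described in each comparison. Of the 59 listed imprinted genes, 55 were matched by symbol; neighbors in the members' domains were named, and of the rest at most 6 per comparison by p. Outside the members, the genes most like Meg3 or Nap1l5 were ranked by r.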

Additional observations from a re-analysis of the deposited data

Results flagged for a closer look

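Each member was checked in each group of libraries. In 10 of these 108 checks, 1 library stood apart from the rest of its group by Dixon's test at 95%. Chance alone flags about 1 check in 20, but the checks share libraries and are not independent. Values are CPM. In CA1 PNs, Rian was 602.5 in the Ts ChP mouse 16-272 (next 821.4), Peg3 was 675 in the 2N ChN mouse 17-56 (next 581.7) and Snrpn was 957.7 in the 2N ChN mouse 17-21 (next 686.4). The libraries of 16-272 and 17-21 are among those high in CA2 markers, and their CA1 list means were 2.74 and 2.92.

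The CA3 PN library of mouse 15-145, whose label differs from the 2N labels of its other libraries, was the highest of 2N ChN for both Rian (917.5, next 636) and Peg3 (788.5, next 652.3). Though not flagged there, it was also the highest for Meg3, Mirg, B830012L14Rik and Nap1l5. It was the lowest for Snrpn, and neither for Ndn or Impact. Its total count of 4744036 was the largest of all libraries. Also in CA3 PNs, B830012L14Rik was 28.8 in the 2N ChN mouse 15-147 (next 41.51) and 25.16 in the 2N ChP mouse 14-125 (next 36.5), and Ndn was 229.9 in the Ts ChP mouse 15-36 (next 185.8). In DGCs, Mirg was 30.32 in the 2N ChP mouse 15-334 (next 14.75) and B830012L14Rik was 28.14 in the Ts ChN mouse 17-173 (next 17.97), both at low read counts.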

How the results depend on the processing

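Counts of members past adjusted p of 0.05 moved as follows. The share of all genes called under each setting is not given beside these counts. A change particular to the members therefore cannot be told from a setting that calls more or fewer genes of all kinds. For Ts against 2N CA3 PNs on ChP the count of 0 became 1 with DESeq2 (Peg3) and 1 with no filter (Meg3), and for diet in Ts DGCs it became 1 with DESeq2 (Rian) and 1 with no filter (Rian, adjusted p = 9.65e-10); the cause was not tested. For CA1 PNs against CA3 PNs the count of 4 was 7 in Ts ChN mice (7 also without the libraries high in CA2 markers), 8 in Ts ChP mice without those libraries, and ranged from 2 (without mouse 15-296, 15-334 or 16-273) to 5 when single mice were left out; Peg3 was lost with library totals (adjusted p = 0.0814), Rian with limma-voom (0.0506) and Impact with no filter (0.0722). Leaving out mice gave 8 to 9 for both contrasts against DGCs, and 0 throughout for genotype on ChP and for diet in Ts CA1 PNs. With the libraries high in CA2 markers left out, the count for CA1 PNs against DGCs was 7. With the mouse as a replicate block the population counts were 5, 8 and 8, and the block changed no other call than that of Ndn (LFC -0.37). Scaling to library totals shifted the median LFC of all genes to 0.11, -0.12 and -0.23 in the CA1 against CA3, CA1 against DGC and CA3 against DGC contrasts, and no member with an unadjusted p under 0.05 changed direction under any setting tried. Meg3 in ChN CA1 PNs, which was described and not tested, went from 0.18 to -0.02 without mice 17-21 and 17-154. The LFC of Nap1l5 in ChN CA3 PNs was -0.39 with mouse 15-145 under its own label. Correlations lost in CA1 PNs were Rian with Mirg without the 2 farthest libraries (0.40) or adjusted for mitochondrial share and depth (0.37), and all 3 pairs (0.33, 0.48 and 0.22) without the libraries high in CA2 markers; in CA3 PNs Meg3 with Mirg was 0.41 after adjustment. The settings on CA2 markers, on mouse 15-140, on the adjustment and on the other groups were chosen after seeing the data. Depth limits Mirg and B830012L14Rik in DGCs most, where single libraries held as few as 2 and 4 reads.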

Other observations

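Several other imprinted genes of the wider list had larger LFCs between the populations than any member. A smaller share of the list than of the members passed the test. Of 31 tested in 2N ChP mice, 7 were higher and 5 lower when going from CA3 PNs to CA1 PNs, 9 and 10 from DGCs to CA1 PNs, and 7 and 12 from DGCs to CA3 PNs, with median LFCs of -0.08, -0.19 and 0.12, so the list as a whole did not share the members' lean toward PNs over DGCs. Of all genes tested in these contrasts, 22.9%, 31.8% and 40.4% differed in either direction. Kcnk9, a potassium channel gene, was nearly absent from CA3 PNs (1.446 to 11.43 CPM) and present in CA1 PNs (53.96 to 161.8 CPM, LFC 4.09 ± 0.32, adjusted p = 2.27e-09 in edgeR) and DGCs (83.29 to 184 CPM). Nnat, which encodes the membrane protein neuronatin, was highest in CA3 PNs (23.27 to 136 CPM, against 5.703 to 9.359 CPM in CA1 PNs; LFC -3.17 ± 0.40, adjusted p = 3.49e-06).

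Mest (LFC -2.45 ± 0.34, adjusted p = 1.42e-07) and Plagl1, a zinc finger gene (LFC -2.10 ± 0.47, adjusted p = 0.000597), had less expression in CA1 PNs than CA3 PNs, and so did Gnas, which encodes a G protein subunit (LFC -0.54 ± 0.10, adjusted p = 4.43e-05). Against DGCs, Inpp5f, Zdbf2 and Gnas were higher in CA1 PNs (LFC 1.88 ± 0.17, 1.81 ± 0.24 and 0.77 ± 0.10) and in CA3 PNs (1.21 ± 0.17, 1.73 ± 0.24 and 1.31 ± 0.10), whereas Peg10 (-2.33 ± 0.40 and -2.73 ± 0.39) and Ppp1r9a (-0.53 ± 0.10 and -0.88 ± 0.10) were lower in both. No gene of the wider list other than the members passed adjusted p of 0.05 by edgeR for genotype on ChP, diet or their interaction.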
